A study of Homo sapiens with 9 samples.

Results

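The RNAs described here were 8 noncoding RNAs that RNA polymerase III makes in large amounts: RMRP, RPPH1, RN7SK, RN7SL1, RN7SL2, VTRNA1-1, VTRNA1-2 and VTRNA1-3. Their values were taken from the peaks of every library that overlapped 1 of these genes on its own strand in the GENCODE annotation of GRCh38 (hg38), 1058 of 2478204 peaks in all. All 8 genes had a peak somewhere, among 21986 genes with a peak in any library. The list was chosen by measured values, the presence and enrichment of peaks on these RNAs in the same libraries, so the peaks and their enrichment are given as a description with no test. The data came from antibody-barcode eCLIP (ABC), in which RNA-binding proteins (RBPs) are crosslinked to RNA with ultraviolet light in living cells, captured with antibodies that each carry a DNA barcode, and identified by ligating that barcode to the RNA fragment held next to it.

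There were 9 samples and 54 libraries. In 3 samples of K562, a human erythroleukemia line, and 2 samples of HEK293T, a human embryonic kidney line (HEK293 from here on), 10 antibodies were pooled in 1 tube (10plex): DDX3, EIF3G, FAM120A, IGF2BP2, LIN28B, PRPF8, PUM2, RBFOX2, SF3B4 and ZC3H11A. The others were singleplex samples of 1 antibody, 2 of RBFOX2 in HEK293 and 2 of SLBP in K562. The line of each sample was taken from its title. Another label of the HEK293 10plex samples names K562, 1 K562 sample is also labelled K563, and both HEK293 10plex samples are numbered 1 in their titles and are called replicates 1 and 2 here. The antibody of a 10plex library is known only from the names of its files. No treatment, knockdown or transgene separates the groups, all cells were crosslinked, and no sample without crosslinking or with a nonspecific antibody was analysed here. Nothing in the labels says that replicates came from separate cultures, so the tests below measure the spread between these samples, which may be technical. Peak reads per library, with touching peaks counted once, ran from 10462 to 1601808 in the K562 10plex, from 17072 to 1989580 in the HEK293 10plex, were 50384 and 11800 for SLBP, and 1802857 and 3669012 for singleplex RBFOX2. All 10 erythroid markers checked had peaks in more K562 than HEK293 10plex libraries, and of 4 neuronal and renal markers of HEK293, NEFL had peaks in 0 of 30 K562 and 17 of 20 HEK293 libraries.

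RMRP and RPPH1 are the RNA components of RNase MRP, which cuts ribosomal RNA precursors, and RNase P, which trims the 5′ end of tRNA precursors; the related enzymes share most of their proteins. RN7SK (7SK) holds the elongation factor P-TEFb inactive together with HEXIM and LARP7. RN7SL1 and RN7SL2 encode the RNA of the signal recognition particle, which brings ribosomes to the endoplasmic reticulum. VTRNA1-1, VTRNA1-2 and VTRNA1-3 are vault RNAs, short hairpin-forming RNAs first found in the vault particle. RNAs this abundant and this stably folded are a familiar background of crosslinking experiments, and the question put to the data was whether each was enriched with any antibody or with particular RBPs.

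Some results concern where on these RNAs the peaks lay, so their sequences are shown first, read from hg38 and written 5′ to 3′ as DNA. Capitals mark the bases that peaks covered in at least 50% of the libraries with a peak on that RNA. The vault RNAs lie together on the plus strand of chromosome 5, at chr5:140711275-140711373, chr5:140718925-140719013 and chr5:140726158-140726246. RMRP lies on the minus strand at chr9:35657754-35658017, and the 3′ part of RN7SK on the plus strand at chr6:52995849-52995948.
VTRNA1-1: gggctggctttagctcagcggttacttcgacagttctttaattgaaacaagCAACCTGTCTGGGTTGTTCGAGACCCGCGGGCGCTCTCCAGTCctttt
VTRNA1-2: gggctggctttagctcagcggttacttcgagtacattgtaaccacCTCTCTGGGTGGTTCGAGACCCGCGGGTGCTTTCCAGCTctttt
VTRNA1-3: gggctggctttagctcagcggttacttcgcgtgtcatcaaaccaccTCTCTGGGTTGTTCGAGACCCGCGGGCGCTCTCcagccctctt
RMRP: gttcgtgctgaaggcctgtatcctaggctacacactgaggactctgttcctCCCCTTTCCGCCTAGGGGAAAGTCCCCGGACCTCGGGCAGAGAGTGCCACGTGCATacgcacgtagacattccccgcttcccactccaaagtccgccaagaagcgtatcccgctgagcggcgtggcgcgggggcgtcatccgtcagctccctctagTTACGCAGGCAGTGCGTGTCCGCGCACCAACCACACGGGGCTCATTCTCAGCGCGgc
RN7SK: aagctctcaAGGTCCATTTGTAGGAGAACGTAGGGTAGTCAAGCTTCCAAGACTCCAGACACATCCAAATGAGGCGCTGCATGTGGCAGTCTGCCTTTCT

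RMRP, RPPH1, RN7SK and VTRNA1-2 each had bases that the peaks of every library with a peak there covered. Counting from 1 at the 5′ end of the annotated gene, they covered bases 52 to 107 and 208 to 262 of the 264 bases of RMRP in at least 50% of the 54 libraries. On RN7SK they covered bases 238 to 328, the last 91 of its 328 bases, while bases 1 to 223 were under no peak of any library. Reads of repetitive elements and reads mapping to several places were set aside before peaks were called, so bases without peaks need not be unbound. The part of this in the bare stretch of RN7SK was not tested. On the vault RNAs they covered bases 52 to 94 of VTRNA1-1, 46 to 84 of VTRNA1-2 and 47 to 79 of VTRNA1-3, the 3′ part of each RNA without its last bases. RPPH1 (minus strand, chr14:20343075-20343407, 333 bases) had bases 1 to 42, 56 to 149, 152 to 154, 200 to 262 and 269 to 333 under peaks in at least 50% of libraries, the stretch from 200 to 262 in at most 44 of 54. The median library had peaks over 72.5% of RPPH1, 42.0% of RMRP and 27.3% of RN7SK.

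**Figure D1:**
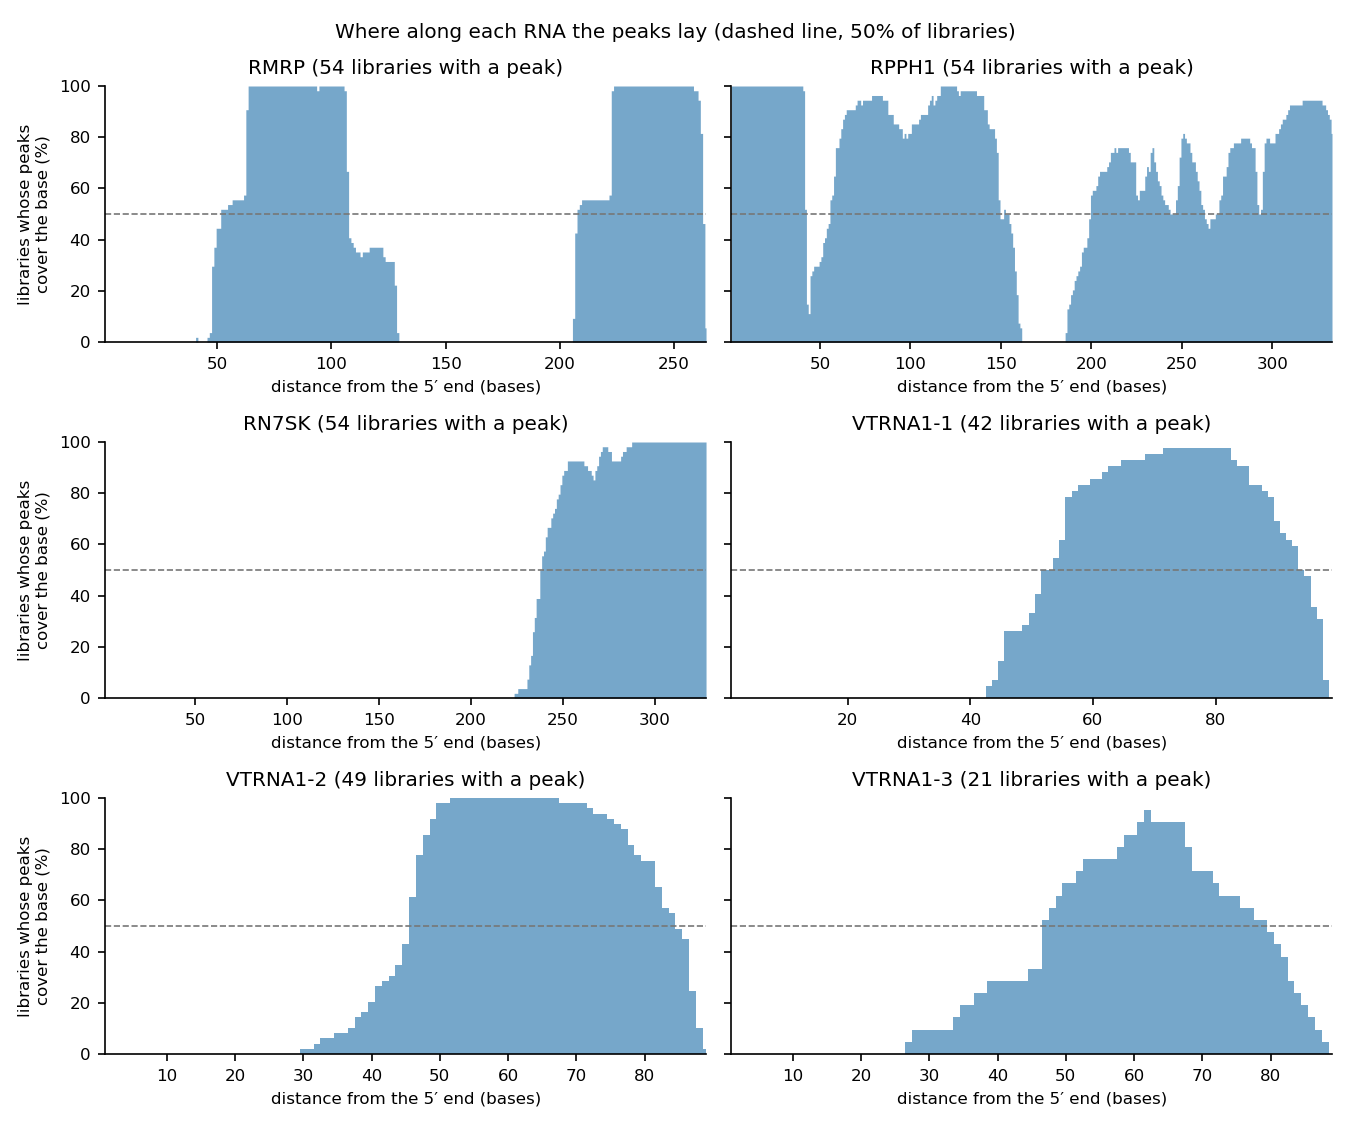
Percent of libraries with a peak on each RNA whose peaks covered each base, against the distance from the 5′ end in bases; the dashed line is 50%. Peaks on RN7SK lay between base 224 and its 3′ end, those on RMRP in 2 stretches, and those on the 3 vault RNAs in the 3′ part.

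Against a background library from outside the tube, RMRP, RPPH1 and RN7SK were enriched whatever the antibody. The labels do not name this library. For ABC the paper describes RNA-seq of each line as the background from outside the pool. How fully such a library holds short folded RNAs was not tested, so the folds need not measure enrichment over crosslinked RNA. By the study's thresholds (P under 0.001 and a fold over 8 for at least 1 peak), RMRP, RPPH1 and RN7SK were enriched in 54 of 54 libraries, where 0.819% of the genes with a peak anywhere were enriched in every library. VTRNA1-2 was enriched in 49 of 54, VTRNA1-1 in 41, VTRNA1-3 in 20, RN7SL1 in 4 and RN7SL2 in 0. Of all pairs of a gene and a library with a peak, 64.5% were enriched by this rule. The log2 fold of the most-read peak over this background had a median of 11.88 for RMRP, 9.27 for RPPH1 and 12.28 for RN7SK over 54 libraries, and its lowest value in any library was 7.87, 6.33 and 9.04. Background counts under these peaks were small, with a median of 3 reads for RMRP, 2 for RPPH1 and 1 for RN7SK, and 1 read is the smallest the files hold. The size of the background relative to the library also differed between antibodies of 1 tube, being 1.48 and 0.825 for RBFOX2 in HEK293 and up to 697 for others, so these folds are not on 1 scale.

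Against the complement control (CC), which sets a peak's share of an RBP's reads against its share of the reads of the other 9 antibodies in the same tube, 1 member met the same thresholds. VTRNA1-2 was listed against the CC in 46 of 50 10plex libraries, and was enriched over it in 5 of 5 LIN28B libraries and in no other. No other member was enriched over the CC in any 10plex library. Across all genes 38.7% of the pairs of a gene and a library listed against the CC were enriched, 9.6% of the 10548 genes listed in a LIN28B library were enriched in all 5 of them, and 0.332% in all 5 and in no other library. The log2 fold of the most-read VTRNA1-2 peak over the CC was 3.88, 4.10 and 3.71 in K562 replicates 1, 2 and 3, and 3.43 and 3.47 in HEK293 replicates 1 and 2. All 5 values lay above the highest of any other antibody, 0.790 for ZC3H11A. Those peaks held from 66 to 610 reads. For RN7SK and RN7SL the CC could be read only in K562 replicate 3, because the other CC files leave out repeats.

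**Figure D2:**
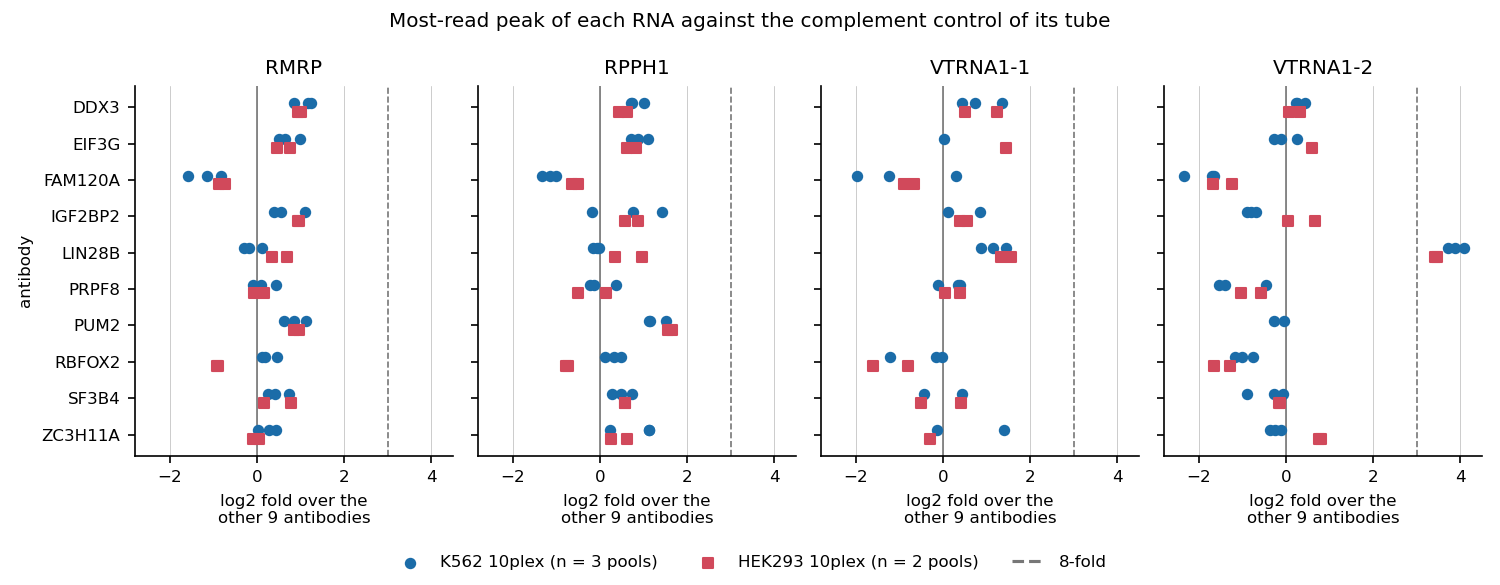
Log2 fold of the most-read peak of RMRP, RPPH1, VTRNA1-1 and VTRNA1-2 over the other 9 antibodies of its tube (horizontal axis), for each antibody, with 1 point per 10plex library; the solid line is no difference and the dashed line the 8-fold threshold. The 5 LIN28B points of VTRNA1-2, from 3.43 to 4.10, are the only ones past 8-fold, and the FAM120A points of RMRP, RPPH1 and VTRNA1-2 all lie below 0.

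Levels were then compared as peak RPM, the reads in a gene's peaks for every 1000000 peak reads of the library. Where libraries are said not to overlap others, the share of all genes so separated was not computed. Such statements describe the values and are not a test. Differences are on the scale of log2(peak RPM + 100), which understates changes of low RNAs, and were tested for each antibody against the mean of the other 9 with limma over all genes, the tube being a block. In K562, 16 of 60 contrasts between an antibody and a tested member were higher and 16 lower at an adjusted p under 0.05, where 14% and 10.3% of all contrasts were. RN7SL1 and RN7SL2 had too few peaks to be tested there. In 4 of the 16 lower contrasts that antibody had no peak on the RNA in any replicate, and these are not read as a difference, since 3 reads in such a library stand for up to 287 peak RPM. In HEK293, 7 of 70 contrasts were higher and 7 lower, against 11.8% and 9.48% of all, with 1 lower contrast of that kind.

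VTRNA1-2 was the vault RNA with the strongest preference. LIN28B, which is known for binding let-7 precursors and many mRNAs, gave 1668, 3181 and 3337 peak RPM in K562 replicates 1, 2 and 3. The other 27 K562 libraries ran from 0 to 836, with a median of 244. In HEK293 LIN28B gave 960 and 332, and the other 18 libraries ran from 0 to 225, with a median of 34.5. LIN28B was the highest of the 10 antibodies in 5 of 5 tubes, and its libraries did not overlap the others in either line. The difference was 2.95 on the log2 scale in K562 (SE 0.27, adjusted p = 1.99e-08 from limma) and 2.21 in HEK293 (SE 0.25, adjusted p = 9.25e-05), where 14.3% and 7.98% of all genes were higher with LIN28B. The difference between the lines in this preference was 0.74 (95% interval -0.08 to 1.56, adjusted p = 0.308). When each library was instead scaled to its share of all reads of the tube, an alternative chosen after seeing the data, this difference was 1.05 and passed (adjusted p = 0.0146 from limma).

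The other vault RNAs followed LIN28B less clearly. VTRNA1-3 gave 51.9, 104 and 141 peak RPM with LIN28B in K562, where the other 27 libraries ran from 0 to 86.2 and 13 had no peak, so the ranges overlapped. Its difference was 0.63 (SE 0.11, adjusted p = 0.000178 from limma). All EIF3G, PUM2 and ZC3H11A libraries were among the 13, and there 3 reads stood for 80.4 to 122, 199 to 287 and 34.1 to 72.2 peak RPM. Several of them could not have shown the LIN28B level, so this difference rests in part on undetectable values. Both HEK293 LIN28B libraries had no peak on VTRNA1-3, and the difference between the lines was 0.69 (SE 0.15, adjusted p = 0.00231 from limma). A count of 3 reads would have been 16.9 and 15.1 peak RPM in those libraries, so a level below this was not detectable. VTRNA1-3 had a peak in 17 of 30 K562 and 3 of 20 HEK293 libraries. It entered the comparison of the lines only through K562, so this change is not read as a test. VTRNA1-1 gave 130, 172 and 207 with LIN28B in K562, inside the range of the others, which reached 506. Its difference of 0.71 (SE 0.26, adjusted p = 0.0495 from limma) was lost without replicate 1 or replicate 2, and held in only 4 of 13 alternatives. The HEK293 difference of 0.51 had an adjusted p of 0.0611 from limma. With the scaling to the tube's reads both passed, at 0.72 in K562 (adjusted p = 0.0083) and 0.42 in HEK293 (adjusted p = 0.0206). Over the CC, the most-read VTRNA1-1 peak of LIN28B was above 0 in 5 of 5 libraries, from 0.872 to 1.56 on the log2 scale, and that of VTRNA1-3 in 3 of 3 from 0.441 to 1.97. DDX3 was above 0 as well, in 5 of 5 libraries for VTRNA1-1 from 0.440 to 1.36 and in 4 of 4 for VTRNA1-3 from 0.491 to 2.44, and IGF2BP2 in 4 of 4 for each, so LIN28B did not stand apart there.

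LIN28B peaks lay farther toward the 5′ end of VTRNA1-2 than those of the other antibodies. Their first covered base was between base 30 and base 38 with a median of 33 in 5 libraries, and between base 37 and base 52 with a median of 46 in the 44 other libraries with a peak. Their last covered base had a median of 75, from 72 to 86, against 85, from 67 to 89. Peak limits can move with read depth, which differs between these libraries, and the positions are given with no test. GGAG, a motif LIN28 proteins are known for, was searched on the RNA's own strand and is not among the letters of any of the 3 vault RNAs. Of 14241 windows of 89 bases around LIN28B peaks of K562 replicate 3, 52.7% held it. No windows away from LIN28B peaks were searched, so this share has no baseline. VTRNA1-2 and VTRNA1-3 differ by 11 bases in an alignment, VTRNA1-1 and VTRNA1-2 by 18.

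RN7SK was highest with PUM2, a 3′ UTR-binding protein that recognizes UGUA-type motifs. PUM2 gave 15389, 16712 and 17941 peak RPM in K562, and the other 27 libraries ran from 832 to 5171 with a median of 2471. In HEK293 PUM2 gave 11539 and 4135, and the other 18 libraries ran from 762 to 3682. PUM2 was highest in 5 of 5 tubes and overlapped no other antibody in either line. The difference was 2.77 in K562 (SE 0.15, adjusted p = 4.30e-12 from limma) and 1.99 in HEK293 (SE 0.40, adjusted p = 0.00497), where 3.75% and 3.01% of all genes were higher with PUM2. In K562 replicate 3 its most-read peak stood 2.16 above the CC on the log2 scale, under the 8-fold threshold, while the other 9 antibodies lay between -0.664 and 0.341.

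Depth bears on this comparison. The PUM2 library had the fewest peak reads of its tube in all 5 tubes, from 10462 to 31199, and the part of this in these differences was not tested. With the scaling to the tube's reads, the RN7SK difference with PUM2 became 2.01 in K562 (adjusted p = 8.90e-12) and 0.87 in HEK293 (adjusted p = 0.0965), and the change between the lines went from 0.78 (adjusted p = 0.221) to 1.14 (adjusted p = 0.0150). With this scaling the VTRNA1-2 difference with LIN28B was 3.08 in K562 and 2.03 in HEK293. The motif TGTANATA is not among the letters of any of the 8 RNAs on their own strand. The shorter TGTA is in RN7SK at bases 247 to 250, inside the covered stretch of bases 238 to 328 given above for all antibodies. It is also in RMRP, VTRNA1-2, RN7SL1 and RN7SL2, outside their covered stretches. Of 1234 windows of 328 bases around PUM2 peaks of K562 replicate 3, 13.9% held TGTANATA and 69.3% held TGTA. No windows away from PUM2 peaks were searched, so these shares have no baseline.

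RMRP and RPPH1 had peaks with every antibody, and both were higher with PUM2 than with the mean of the other antibodies. RMRP with PUM2 gave 12044, 14325 and 9807 peak RPM in K562, and the other 27 libraries ran from 1017 to 9852, of which 2 reached the PUM2 range. In HEK293 PUM2 gave 26535 and 30930, above all 18 others, which reached 17018. The difference was 1.38 in K562 (SE 0.17, adjusted p = 1.53e-06 from limma) and 1.83 in HEK293 (SE 0.13, adjusted p = 3.31e-06), and 0.63 and 0.70 with the scaling to the tube's reads, where both adjusted p-values stayed under 0.05. RPPH1 with PUM2 gave 6786, 5571 and 4409 in K562 and 3456 and 6603 in HEK293, overlapping the others in both lines. Its difference was 1.29 in K562 (SE 0.16, adjusted p = 2.19e-06) and 1.08 in HEK293 (SE 0.23, adjusted p = 0.00569), and with the other scaling 0.55 and -0.014, so the HEK293 value turned direction.

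FAM120A stood at the low end for RMRP and RPPH1 in both lines and for RN7SK in K562, where 7.27% of all genes were lower with FAM120A in K562 and 5.88% in HEK293. Its library had the most peak reads of each K562 tube, from 655727 to 1601808, and held 1427474 and 1959753 in HEK293. The part of this depth in the differences was not tested. RMRP with FAM120A gave 2713, 1017 and 1771 in K562 and 2894 and 3717 in HEK293, the lowest antibody in 5 of 5 tubes. Its difference was -1.66 in K562 (SE 0.17, adjusted p = 1.06e-07 from limma) and -1.60 in HEK293 (SE 0.13, adjusted p = 9.71e-06). RPPH1 fell by 1.58 in K562 and by 1.16 in HEK293 on the log2 scale, and RN7SK by 1.58 in K562, where its 3 FAM120A libraries lay below all 27 others. In HEK293 FAM120A gave 1114 and 1288 on RN7SK, inside the range of the other 18 libraries, with a difference of -0.72 (adjusted p = 0.245 from limma). VTRNA1-2 fell by 1.29 with FAM120A in K562 and lost the call without replicate 2, at -1.09. These 4 K562 differences still passed with the scaling to the tube's reads, at -1.16 for RMRP, -1.10 for RPPH1, -1.10 for RN7SK and -0.97 for VTRNA1-2. Over the CC, FAM120A was below 0 for RMRP, RPPH1 and VTRNA1-2 in 5 of 5 libraries each, from -1.59 to -0.732, from -1.33 to -0.516 and from -2.35 to -1.23.

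**Figure D3:**
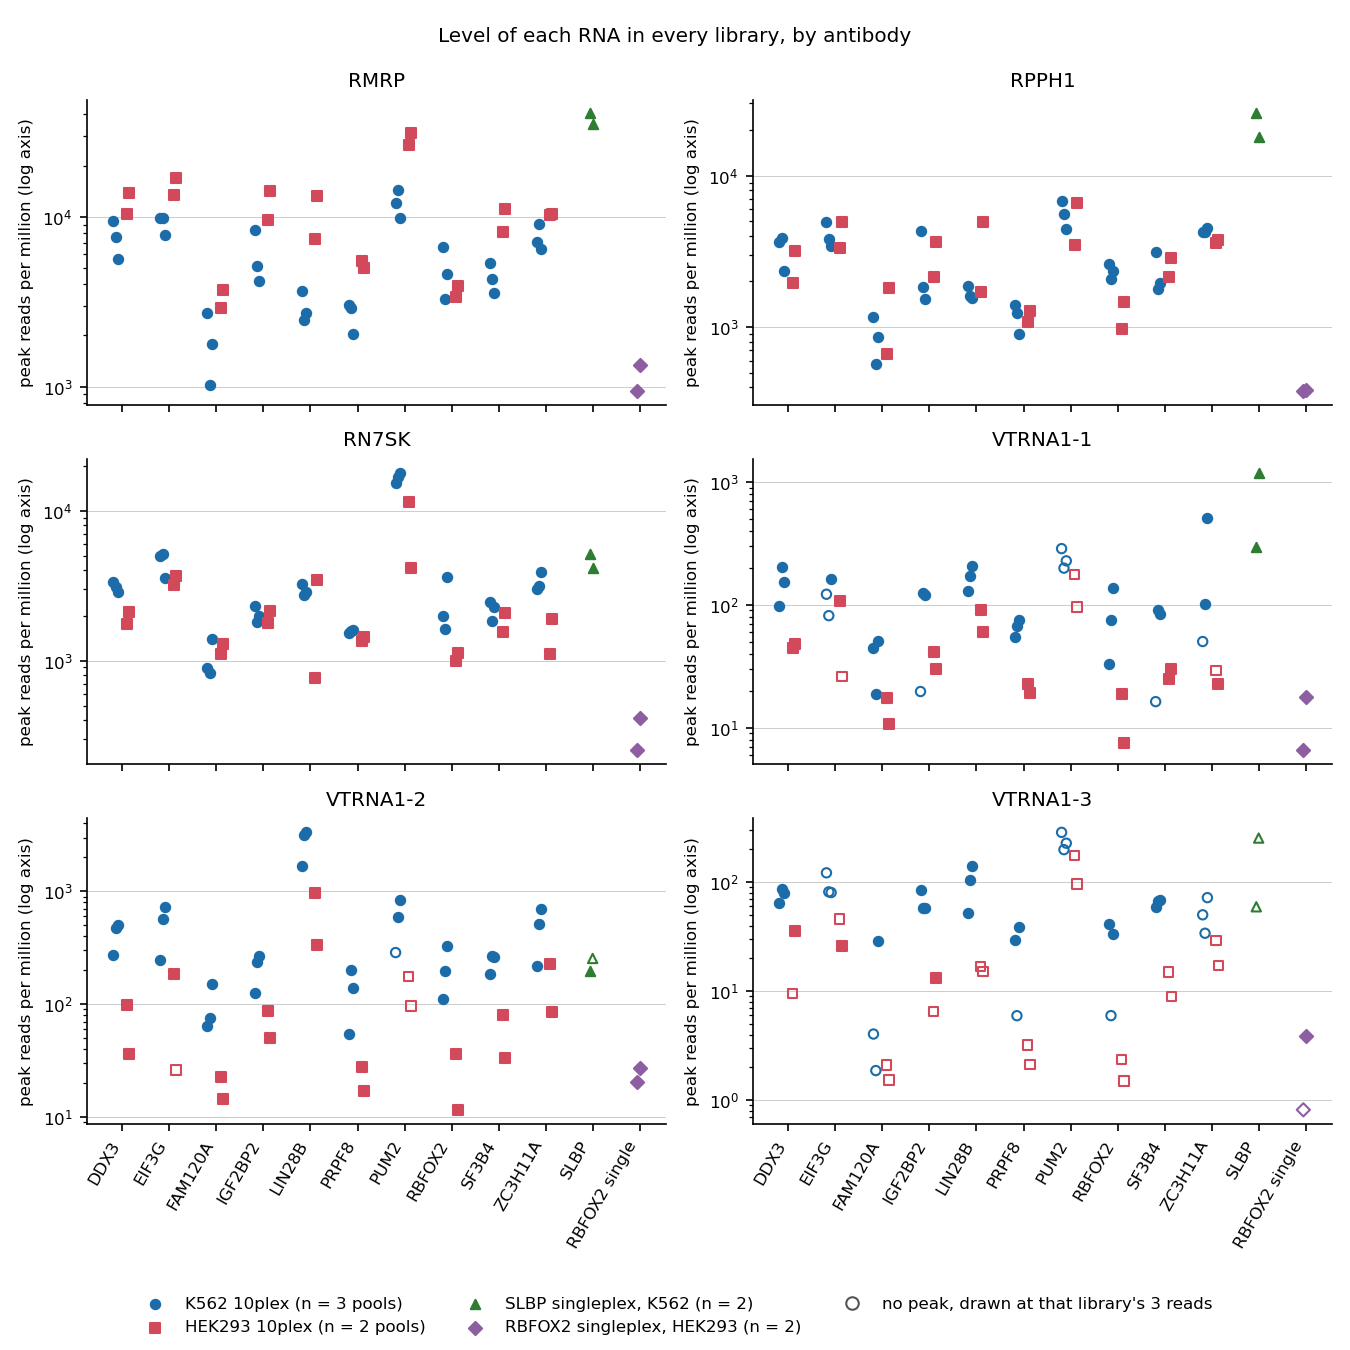
Peak RPM (log axis) of 6 RNAs in every library, by antibody, with circles for K562 10plex, squares for HEK293 10plex, triangles for SLBP and diamonds for singleplex RBFOX2; open symbols are libraries with no peak, drawn at the level 3 reads would give. LIN28B stands above the other antibodies for VTRNA1-2, PUM2 for RN7SK, and SLBP for RMRP and RPPH1, while several PUM2 and SLBP libraries could not have shown a vault RNA at the level of the others.

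Other antibodies also differed, and so did their depth. In K562, EIF3G libraries held 24598 to 37302 peak reads, ZC3H11A libraries 41537 to 88101 and PRPF8 libraries 439373 to 642998. The part of this in the differences below was not tested. EIF3G, a translation initiation factor subunit, was higher on RMRP, RPPH1 and RN7SK in K562 by 0.96, 0.80 and 0.70, where 5.39% of all genes were. The RN7SK call was lost without replicate 1 (0.63) or replicate 2 (0.54) and with the scaling to the tube's reads (0.26). With PRPF8, a core protein of the spliceosome, RMRP, RPPH1 and RN7SK fell by 1.00, 1.10 and 0.93 in K562, where 4.53% of all genes were lower, and the RMRP and RN7SK calls were lost with that scaling, at -0.32 and -0.26. The RNA helicase DDX3 was higher on RMRP, RPPH1 and VTRNA1-3 by 0.63, 0.45 and 0.47, where 10.6% of all genes were. The RMRP call was lost without replicate 1 or 3, that of RPPH1 without any 1 of the 3, and that of VTRNA1-3 without replicate 2. The VTRNA1-3 call also rests in part on the undetectable values given above for LIN28B. ZC3H11A was higher on RMRP and RPPH1 by 0.64 and 0.91, where 6.06% of all genes were, and both calls were lost with the other scaling, at 0.08 and 0.35, that of RMRP also without replicate 3.

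With LIN28B, RMRP and RPPH1 fell by 0.84 and 0.55 in K562, where 7.01% of all genes were lower. The RMRP call held under every alternative run, at -0.63 with the scaling to the tube's reads, and that of RPPH1 was lost without any 1 of the 3 replicates. VTRNA1-2 fell by 1.06 with PRPF8, a call lost without replicate 2 or 3. Other small K562 calls were RN7SK lower with the mRNA-binding protein IGF2BP2 (-0.54) and the splicing factor SF3B4 (-0.43), and VTRNA1-3 higher with both (0.38 and 0.37), all 4 lost without replicate 1 or replicate 2. Those of VTRNA1-3 rest in part on undetectable values, as with LIN28B. The RN7SK call with SF3B4 held in only 5 of 13 alternatives and was also lost with the scaling to the tube's reads (-0.22). In HEK293 the calls not given elsewhere were RMRP with DDX3 (0.44), EIF3G (0.81) and PRPF8 (-0.87), and RPPH1 with EIF3G (0.82), PRPF8 (-1.08) and RBFOX2 (-1.04). With the scaling to the tube's reads the EIF3G and PRPF8 calls in HEK293 were lost.

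The lines differed in level for some members when the 10 antibodies of a tube were averaged, with 3 of 7 tested members higher and 1 lower in K562 against 11.1% and 40.7% of all genes. RMRP had a median of 5233 peak RPM in 30 K562 libraries, from 1017 to 14325, and of 10274 in 20 HEK293 libraries, from 2894 to 30930. It was lower in K562 by 0.85 on the log2 scale (SE 0.19, adjusted p = 0.0135 from limma), which was lost without either HEK293 replicate. VTRNA1-2 had a median of 264 in K562 and 36.1 in HEK293 and was higher in K562 by 1.34 (SE 0.36, adjusted p = 0.0254), lost without either HEK293 replicate or K562 replicate 2. RN7SK and VTRNA1-3 were higher by 0.56 and 0.35. VTRNA1-3, 1 of the 3 counted as higher, had a peak in 17 of 30 K562 and 3 of 20 HEK293 libraries. It passed the filter of at least 5 libraries only through K562, so its difference is not read as a test. The difference was lost for RN7SK without HEK293 replicate 1 or any 1 K562 replicate, and for VTRNA1-3 without HEK293 replicate 1. RPPH1 differed by 0.011 (95% interval -0.67 to 0.70). Fewer cells or molecules of an RNA and less crosslinking per molecule cannot be told apart in these libraries.

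SLBP, which binds the stem-loop at the 3′ end of histone mRNAs, gave the highest levels of the RNase RNAs. RMRP reached 40608 and 35085 peak RPM in the 2 SLBP libraries, ranks 3 and 4 among the genes there, against 14325 at most in 30 K562 10plex libraries. RPPH1 reached 25782 and 18051, against 6786 at most. Neither RNA's SLBP libraries overlapped the 10plex libraries. RN7SK at 5121 and 4153 lay above 25 of the 30 10plex libraries and below PUM2. VTRNA1-1 reached 298 and 1186, VTRNA1-2 gave 198 and no peak, and VTRNA1-3 had no peak.

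Against the 3 K562 pool means, SLBP was higher by 2.90 for RMRP (SE 0.17, adjusted p = 0.0109 from limma), 3.12 for RPPH1 (SE 0.22, adjusted p = 0.0109), 2.06 for VTRNA1-1 and 0.66 for RN7SK, 4 of 6 tested members where 1.39% of all genes were higher. The VTRNA1-1 difference was lost without SLBP replicate 2 (1.21) or without any 1 K562 replicate, and that of RN7SK without SLBP replicate 1 (0.51). The median of all genes tested was -0.13 on the same scale. A lower value of VTRNA1-3, 1 call where 52.5% of all genes were lower, is not read, since 3 reads stand for 59.5 and 254 peak RPM in the SLBP libraries. SLBP ran in tubes of its own, so antibody and tube cannot be told apart. Its libraries held 50384 and 11800 peak reads, against a median of 156932 in the K562 10plex. The part of this depth in the differences was not tested, and the scaling to the tube's reads has no value for a singleplex. The SLBP share of peak reads on the 8 RNAs together was 7.20% and 5.85%, against 0.251% to 3.72% in the K562 10plex.

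**Figure D4:**
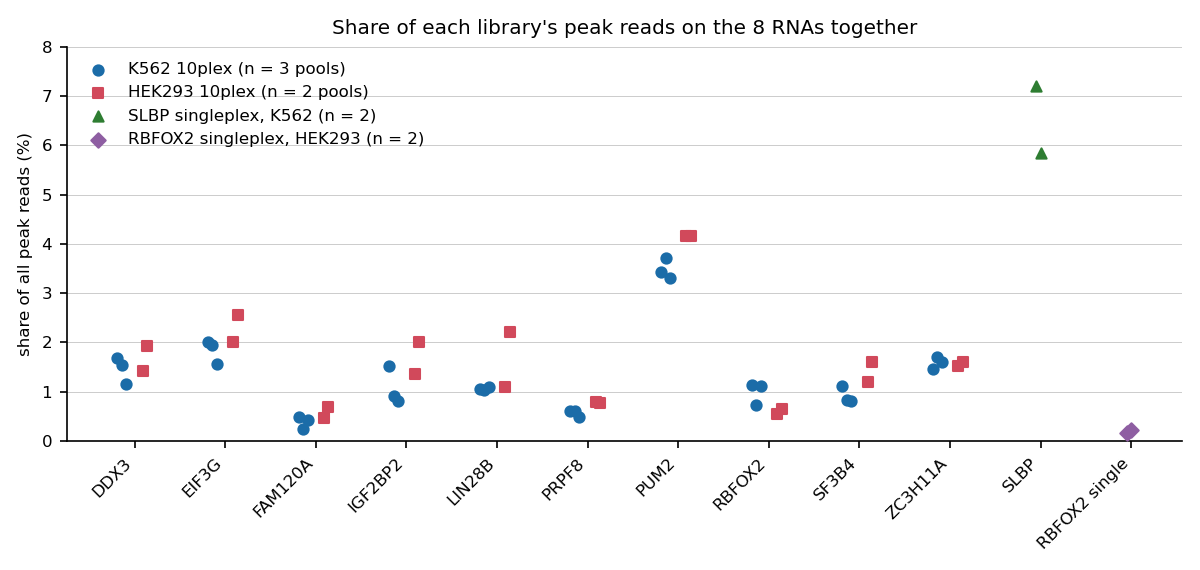
Share of each library's peak reads that fell on the 8 RNAs together, in percent, by antibody, with 1 point per library. The SLBP libraries lie highest at 7.20% and 5.85%, PUM2 is highest within the 10plex, and the singleplex RBFOX2 libraries lie lowest at 0.160% and 0.219%.

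RBFOX2, a splicing regulator that binds GCAUG, was the antibody used both alone and in the pool in HEK293. Alone it gave 944 and 1341 peak RPM on RMRP against 3367 and 3916 in the 10plex, 379 and 384 on RPPH1 against 975 and 1465, and 252 and 414 on RN7SK against 990 and 1132. The singleplex libraries lay below the 10plex libraries for all 3 RNAs, a description of only 2 libraries on each side. The differences were -1.60, -1.43 and -1.45 (SE 0.25, 0.22 and 0.22, adjusted p = 0.0476, 0.0444 and 0.0444 from limma), 3 of 5 tested members lower where 0.468% of all genes were lower and none of the 5 higher where 0.0448% were. With only the highest peak of a gene counted, or with a pseudocount of 1000, none of the 3 passed. VTRNA1-1 and VTRNA1-2 differed by -0.014 (95% interval -0.18 to 0.15) and 0.0059 (95% interval -0.24 to 0.25). GCATG occurs in RN7SK at bases 307 to 311, and not in RMRP, RPPH1 or the vault RNAs.

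Within the 10plex, RBFOX2 stood differently to the other antibodies in the 2 lines. Its libraries held 269566 to 501755 peak reads in K562 and 1270921 and 1989580 in HEK293, and the part of this depth was not tested. On RMRP, RBFOX2 gave 6603, 3263 and 4626 in K562, inside the range of the others, and 3367 and 3916 in HEK293, near the lowest. It was lower than the other 9 by 1.44 in HEK293 (SE 0.13, adjusted p = 2.17e-05 from limma), where 4.13% of all genes were lower, and the change from HEK293 to K562 was 1.33 (SE 0.25, adjusted p = 0.000257), where 4.14% of all genes had a higher RBFOX2 difference in K562. The same change on RPPH1 was 1.00 (SE 0.27, adjusted p = 0.0146), and was lost without HEK293 replicate 2 (0.91) or K562 replicate 3 (0.88) and with the scaling to the tube's reads (0.61). Over the 10 antibodies, 3 of 70 such changes were higher in K562 and 3 lower, where 4.71% and 5.41% of all were. The lower change of VTRNA1-3 with EIF3G is not read, since 3 reads stood for 80.4 to 122 peak RPM in the K562 EIF3G libraries, which had no peak there.

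RN7SL1 and RN7SL2 (chromosome 14, chr14:49586580-49586878 on the plus strand and chr14:49862550-49862849 on the minus strand) had almost no peaks. RN7SL1 had a peak in 9 libraries, 8 of them in HEK293, with 7 to 29 reads each, and RN7SL2 in 1 library with 7. Their sequences differ by 5 bases and that of RN7SL1 from RN7SL3 by 7, and the files keep reads that map to 1 place after reads of repetitive elements were set aside, so these values do not measure the RNA of the signal recognition particle. RPPH1, RN7SK, RN7SL2 and the vault RNAs also overlap other annotated genes on the same strand, and reads there cannot be divided between the pair.

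Other RNA polymerase III RNAs seldom had peaks. Of 52 on the list, 8 had a peak anywhere and 3 were enriched over the external background in at least 50% of K562 10plex libraries, as were 13.7% of all genes with a peak: RNU6ATAC, the minor spliceosome's U6 relative, in 30 of 30, the 5S ribosomal RNA gene RNA5S9 in 29 and VTRNA2-1 in 25. None was enriched over the CC in any library, where 72.6% of all genes with a peak were, but repeats are left out of most CC files. VTRNA2-1 was enriched in 25 of 30 K562 but 1 of 20 HEK293 libraries and was higher in K562 by 1.00. The enriched libraries that carried VTRNA2-1 past the filter of at least 5 were nearly all of K562, so this difference is not read as a test. VTRNA2-1 was also higher with LIN28B than with the other antibodies in K562. RNAs of similar structure made by RNA polymerase II were also enriched: of 13, 11 had a peak, 8 were enriched in at least 50% of K562 libraries, and 3 were enriched over the CC in some library. Of these, the minor spliceosomal RNAs RNU11 and RNU12 were enriched over the CC in 5 libraries each and RNU4ATAC in 4, whereas the telomerase RNA TERC and the U3 RNA SNORD3A, enriched over the external background in 50 of 50 10plex libraries, were so in none.

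The mRNAs of the proteins that bind these RNAs were examined as well. All 11 mRNAs of RNase P and MRP proteins had a peak in some library, as did those of all 6 signal recognition particle proteins, 7 proteins of the 7SK complex and 3 vault proteins. In at least 50% of K562 10plex libraries, 0 of the 11, 2 of 6, 2 of 7 and 0 of 3 were enriched over the external background, beside the 13.7% of all genes. They were SRP14 in 19 of 30 and SRP72 in 18, and HEXIM1, the P-TEFb inhibitor held by 7SK, and the P-TEFb kinase CDK9 in 15 each.

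Over the 30 K562 10plex libraries the genes whose levels moved most like RMRP, leaving out those that overlap it, were ENSG00000259001 (Pearson's r = 0.959), which overlaps RPPH1, and the mitochondrial ribosomal RNAs MT-RNR2 (0.957) and MT-RNR1 (0.952). For RPPH1 they were MT-RNR2 (0.965), MT-RNR1 (0.954) and SNORA71A (0.905). For RN7SK they began with SNORD97 (0.874), and for VTRNA1-2 with the fetal globin HBG1 (0.855) and the ribosomal protein gene RPL35 (0.855). These correlations are over libraries that share tubes and antibodies and differ in depth, and are given as a description.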

How the data were processed

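Antibody-barcode eCLIP was measured in 9 samples (54 libraries). The authors trimmed adapters with cutadapt 2.8, set aside reads of repetitive elements, aligned the rest uniquely with STAR 2.7.6 to GRCh38 with GENCODE 35, removed PCR duplicates and called peaks per library with CLIPper. The deposited files hold CLIPper's p-value or a display score per peak, and for merged peaks the log2 fold over a background and −log10 of a p-value capped at 400. Reads were recovered here from the deposited fold and −log10 p, which they matched in 99.7% to 100% of peaks. In the 22 libraries whose deposited peak names also hold a read count (K562 10plex replicates 1 and 3 and singleplex RBFOX2), 96.9% to 99.6% of the recovered reads equalled it. The HEK293 10plex, K562 replicate 2 and SLBP could not be checked this way. CC folds were in the files for K562 replicate 3, and were otherwise solved from the deposited chi-squared statistic, to whole reads for 78.4% of 870 member peaks and to the nearest for the rest. Checked on K562 replicate 3, the side of 0 was right for 92.0% of 112 peaks and 100% of the 54 beyond 0.5 log2. Genes came from GENCODE 44 (1 base of overlap, own strand).

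Touching peaks were counted once. Gene sums for every 1000000 peak reads (peak RPM), plus a pseudocount of 100, were tested on the log2 scale with limma 3.58.1 (R 4.3.3; trend, two-sided, Benjamini-Hochberg over all genes, and over all 10 contrasts together, 0.05) on genes with a peak in at least 3 (K562), 2 (HEK293) or 5 (both) libraries, with the tube as a block for antibody contrasts, and were tested on simulated data. Tubes were the replicates between lines and against SLBP. Depth was known as peak reads only; intervals cover 95%. All 8 RNAs are named; genes of the fixed lists are named where enriched in at least 50% of a line's libraries or past a test, and the 3 genes most alike in pattern for each RNA. The RNAs, lists and tests were chosen with earlier results of these data known. Values were recomputed with pseudocounts of 10 and 1000, other filters, overlaps and denominators, array weights, the block changed, thresholds changed and each replicate left out.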

Additional observations from a re-analysis of the deposited data

Results flagged for a closer look

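An antibody's difference from the other 9 changed between the cell lines in 6 tests of that change itself, out of 70 that involved these RNAs (3 higher and 3 lower in K562, where 4.71% and 5.41% of all such tests over genes were). For RBFOX2 the difference on RMRP was 1.33 higher in K562 than in HEK293 on the log2 scale (adjusted p = 0.000257 from limma), and that on RPPH1 was 1.00 higher (adjusted p = 0.0146), the latter lost without HEK293 replicate 2 (0.91) or K562 replicate 3 (0.88). The RBFOX2 libraries of the HEK293 10plex had a background of 1.48 and 0.825 times the library, against up to 697 in the tubes, and reads were recovered from folds over it; the part of this in the change was not tested. For LIN28B the difference was lower in K562 by 0.98 on RMRP (-0.98, adjusted p = 0.00729) and by 0.86 on RPPH1 (-0.86, adjusted p = 0.0390), and higher by 0.69 on VTRNA1-3 (adjusted p = 0.00231). VTRNA1-3 passed the filter of at least 5 libraries only through K562, so its change is not read as a test. Without HEK293 replicate 2 the LIN28B changes on RMRP and RPPH1 were -0.69 and -0.42 and both calls were lost. The RMRP call held in 12 of 13 alternatives and the RPPH1 call in only 5 of 13. The RPPH1 call was also lost with the scaling to the tube's reads (-0.66, adjusted p = 0.0583 from limma). For EIF3G the change on VTRNA1-3 was -0.57 (adjusted p = 0.0117), with no EIF3G peak on it in any K562 library and 26.1 peak RPM in 1 of 2 HEK293 libraries, from 3 reads. A count of 3 would be 80.4 to 122 peak RPM in the K562 EIF3G libraries, so that level was not detectable there and the change is not read. It was also lost without HEK293 replicate 2 (-0.44) or K562 replicate 3 (-0.53).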

How the results depend on the processing

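Across alternatives, 12 of the 32 member calls in K562, 4 of 14 in HEK293, 2 of 6 between lines for an antibody, 0 of 4 between lines, 2 of 5 for SLBP and 0 of 3 for singleplex RBFOX2 were never lost. The calls never lost were in K562 RMRP with EIF3G, FAM120A, LIN28B and PUM2, RPPH1 with EIF3G, FAM120A, PRPF8 and PUM2, RN7SK with FAM120A and PUM2, and VTRNA1-2 and VTRNA1-3 with LIN28B, and in HEK293 RMRP with FAM120A, PUM2 and RBFOX2 and VTRNA1-2 with LIN28B. No alternative removed the undetectable values on which the VTRNA1-3 call rests in part. Leaving out a replicate gave 20 to 28 member calls in K562 (20 without replicate 2), 3 to 14 for the change between lines (3 without K562 replicate 3, 14 without HEK293 replicate 1), 1 to 4 between lines, 4 to 5 for SLBP, 3 to 3 for singleplex RBFOX2, 219 to 272 enriched pairs over the external background (276 in all) and 4 to 4 over the CC (5 in all). Leaving out a HEK293 tube within HEK293 could not be fitted, since 1 tube leaves no spread. With genes read in at least 50% of libraries the change between lines gave 3 calls. A pseudocount of 1000 gave 3 calls for SLBP and 0 for singleplex RBFOX2, and the highest peak only gave 0 for the latter, the cause of which was not tested. Over the CC, P under 1e-05 with a fold over 16 gave 2 and P under 0.001 with any fold over 1 gave 83. The scaling to the tube's reads, added after seeing the data, reversed RPPH1 with PUM2 in HEK293 (-0.014), kept 25 of 32, 8 of 14, 4 of 6 and 4 of 4 calls, and gave 27, 10, 6 and 4 in all, among them changes between lines of VTRNA1-2 with LIN28B and RN7SK with PUM2 that had not passed.

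Without the tube as a block, 26 member calls remained in K562 and 7 in HEK293. Replicate numbers did not pair the samples in the other comparisons (correlations of deviations -0.25 and -0.12 between lines, 0.08 and 0.06 for SLBP, -0.066 and -0.066 for RBFOX2). With the replicate number as a block there were 4 calls between lines, 2 for SLBP and 3 for singleplex RBFOX2.

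Counts of calls over all genes depended on the setting by more than 1.5 times in places. They were 31493 in K562, but 18470 with the highest peak only and 18594 without replicate 2, and 35972 in HEK293, but 16356 with the highest peak only. For the change between lines there were 15592, with 3233 for genes read in at least 50% of libraries, 8266 with the highest peak only, 24075 without HEK293 replicate 1, and 10047 and 10165 without K562 replicates 1 and 2. Between lines there were 7972, with 3656 under the 50% filter, 4933 with the highest peak only and 4863 without HEK293 replicate 2. For SLBP there were 7051, with 3708 under the 50% filter, 4401 and 4168 without SLBP replicates 1 and 2, and 5 with the replicate block. For singleplex RBFOX2 there were 80, with 168 and 30 at pseudocounts of 10 and 1000, 210 with no filter, 0 with the highest peak only (2457 at an unadjusted p under 0.05 from limma), 991 with the replicate block, and 615 to 1043 without 1 library.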
